A study of Mus musculus with 10 samples.

Results

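The immediate early transcription factors Fos, Fosb, Fosl2, Jun, Junb, Jund, Egr1, Atf3, Nr4a1 and Myc were followed in mouse ventricles of 2 tropomyosin transgenic lines and of nontransgenic hearts. They were chosen by name: every probe set annotated to a single one of these symbols was taken, which gave 11 of the 22626 probe sets analysed, 10 of 12393 named genes. Jun had 2 probe sets and every other member had 1. The groups were alpha-TM175 (TM175, 3 arrays), alpha-TM180 (TM180, 4 arrays) and nontransgenic controls (NTG, 3 arrays), each array hybridised with total RNA of ventricular tissue without further treatment. Each genotype had 1 array of an extract pooled from 20 hearts (3 pooled arrays in all), and the remaining 7 arrays held a single heart each. As background, both transgenes encode alpha-tropomyosin with an amino acid substitution known from familial hypertrophic cardiomyopathy, expressed in these lines from the cardiac alpha-myosin heavy chain promoter, and TM175 is the milder model. The labels give no age, sex or strain, and do not say whether the pools include the hearts measured alone. The p-values measure the spread between these arrays, and their number limits the precision.

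Immediate early genes are transcribed within minutes of a stimulus without new protein synthesis, through factors such as SRF and CREB that already sit at their promoters. Proteins of the Fos and Jun families pair through leucine zippers into the dimers called AP-1, and Atf3 is a zipper protein that can join Jun proteins. Egr1 and Nr4a1 are DNA-binding factors of the zinc finger and nuclear receptor classes, and Myc pairs with Max to drive growth genes. In heart muscle several of these genes, such as Fos, Jun and Egr1, are known to respond early and briefly to stretch, pressure load and adrenergic agonists.

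The arrays differed by extract type and 1 heart stood apart. Pooled arrays scored 30.06 to 39.85 on the leading principal component (47.4% of the variance), against -31.56 to 2.56 for the 7 individual arrays. Xist, which is made from an inactive X, reached 987.6 in TM175 array 1, against 99.52 to 136.2 in the other 6 individual arrays. Eif2s3y, a gene of the Y chromosome, read 7.234 in TM175 array 1, against 44.71 to 60.78 in those 6. By both genes TM175 array 1 read as the only female single heart. Among the pools Xist read 414.1 in TM175 and 393.7 in TM180, against 148.8 in NTG, so the pools differed by genotype in this marker of female tissue. Eif2s3y read 38.3, 35.29 and 46.66 in the TM175, TM180 and NTG pools. Differences are therefore given also from a model that includes extract type and, where TM175 results turn on it, without TM175 array 1. Myh7, the slow myosin heavy chain that marks hypertrophy in mice, read 2529 to 6319 in TM175 arrays and 2577 to 3922 in TM180 arrays, against 325.4 to 349.8 in NTG arrays. Nppa, a natriuretic peptide gene, had values of 521.4, 5478 and 3822 in TM175 and of 5991 to 9127 in TM180, against 635.4 to 906.1 in NTG, so that TM175 array 1 lay below all NTG arrays. Nppb, its relative, overlapped with NTG in TM175, at 952.3 to 4203 against 1328 to 2210. Of 5 hypertrophy reference genes 1 rose in TM175 and 2 in TM180, with or without extract type. Of all probe sets 0.862% and 2.01% were called with extract type, and 0.00884% and 0.504% with genotype alone. The summed intensity of 8 cardiomyocyte markers was 50600 to 52700 for TM175, 48300 to 54100 for TM180 and 52700 to 58200 for NTG arrays.

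Egr1, an activator that binds GC-rich promoters, was higher in TM180 ventricles, and this difference was called with extract type in the model. Its probe set (1417065_at) read 211.1, 273.5, 230.4 and 311 in TM180 arrays 1 to 4, of which the last was the pool, against 148.5, 154 and 155.9 in NTG arrays 1 to 3. Every TM180 array lay above every NTG array, and the control arrays were close together. The means were 257 ± 44.7 in TM180 (SD, n = 4) and 153 ± 3.84 in NTG (SD, n = 3). With genotype alone in the limma model the log2 difference was 0.73 ± 0.17 (SE), a 1.66-fold difference (95% interval 1.29 to 2.14) that did not pass over all probe sets (adjusted p = 0.1). With extract type in the model it was 0.76 ± 0.13 (SE) and Egr1 rose 1.69-fold (1.39 to 2.06, adjusted p = 0.0126). The individual arrays alone gave 0.65 (adjusted p = 0.176) and the pooled arrays alone 1.00, a single pair with no test. In fits with extract type that left out 1 array each, a check added after seeing the data, Egr1 passed in 8 of 10. It did not pass without the TM180 pool (0.71, adjusted p = 0.0692) or without the NTG pool (0.64, adjusted p = 0.0991), the pools that also differed in Xist, whose part in the Egr1 result was not tested.

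Egr1 in TM175 spread widely around a mean of 206 ± 46.1 (SD, n = 3). It read 212.6, 156.8 and 248.2 in TM175 arrays 1 to 3, against 148.5, 154 and 155.9 in NTG. TM175 array 2 was within 1 unit of the highest NTG array, while array 1 and the pool were well above it. The log2 difference was 0.40 ± 0.18 (SE, adjusted p = 0.374), and 0.40 ± 0.14 once extract type was included (adjusted p = 0.136). Without TM175 array 1 and with extract type it was 0.31 (adjusted p = 0.326). Between the lines Egr1 was at 0.33 ± 0.17 in TM180 over TM175 (95% interval -0.04 to 0.70, adjusted p = 0.409), and at 0.35 ± 0.13 with extract type (95% interval 0.07 to 0.63, adjusted p = 0.135). The difference between the lines did not pass over all probe sets in either model.

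Fibroblast markers were also higher in TM180. The 8 fibroblast markers summed to an intensity of 6640 to 10300 in TM175 and 8410 to 12900 in TM180 arrays, against 4600 to 6910 in NTG arrays. Of these 8, 3 rose in TM180 with genotype alone and 5 with extract type, beside 0.504% and 2.01% of all probe sets called. In TM175 1 rose in either model, beside 0.00884% and 0.862%. The lowest marker value in any array was 107. None of the 8 endothelial, 7 macrophage or 6 smooth muscle markers measured was called in either line against NTG with extract type. The part of the fibroblast markers in the Egr1 result was not tested. In whole ventricle a change in the number of cells of a type and a change in RNA per cell cannot be told apart.

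**Figure D1:**
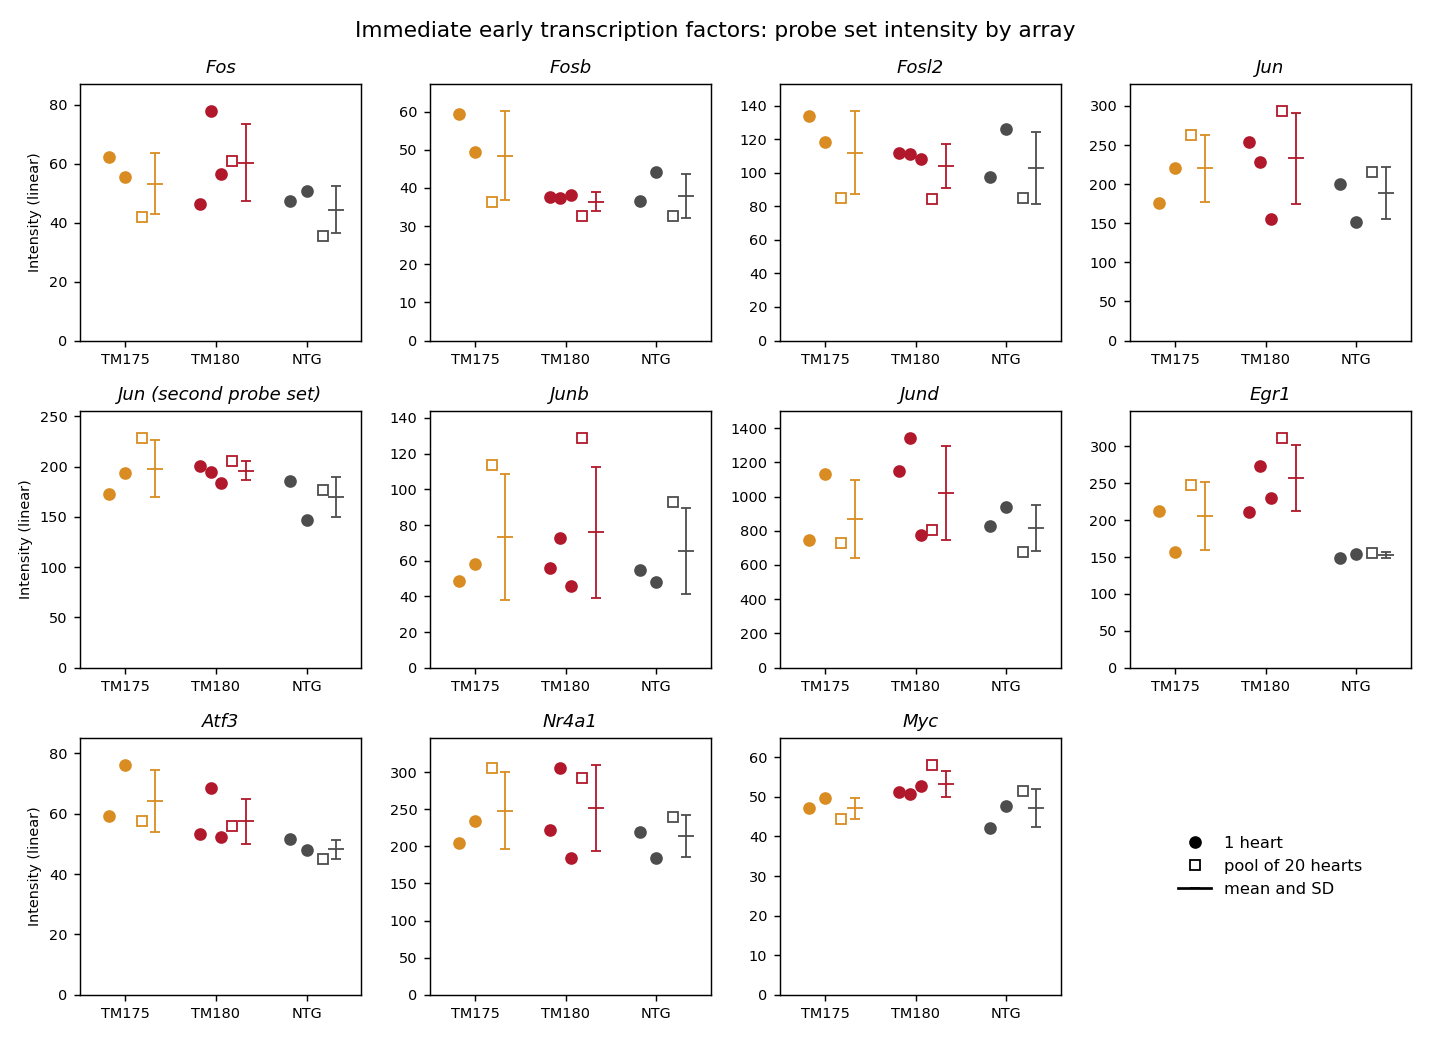
Intensity (linear scale, arbitrary units) of the 11 probe sets in every array, by genotype, with filled circles for single hearts, open squares for pools of 20 hearts, and bars for mean and SD. The Egr1 arrays of TM180 sit between 211.1 and 311, all above the NTG arrays at 148.5 to 155.9, whereas the Junb pools stand above all single hearts in every genotype.

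The promoters of some members carry the sequence that Egr1 binds, and they are shown because Egr1 was the member called in TM180. RefSeq promoters, 250 bases before to 50 after the start site on GRCm38.p6, were available for 8 of the 10 members, not for Egr1 and Myc. The Egr1 motif GCGGGGGCG was searched on both strands and found in 3 of these 8, Fosb, Fosl2 and Nr4a1, and in 2.91% of all 32851 promoters of the same length. The core TGACG of ATF and CREB sites was found in 5 of the 8 (Fos, Fosb, Junb, Atf3 and Nr4a1), 4 times in Nr4a1, and in 20.8% of all promoters. The AP-1 motif TGACTCA (5.2% of all promoters), the palindrome TGACGTCA that contains the core (1.79%), the E-box CACGTG bound by Myc (7.15%) and the CArG box bound by SRF (1.63%) were not among the letters of these 8 windows. Sites outside these windows were not searched, so this does not show that the genes lack them. The promoters of Fosb (chr7:19309996-19310295, minus strand), Fosl2 (chr5:32136222-32136521, plus strand) and Nr4a1 (chr15:101266596-101266895, plus strand) hold the Egr1 motif. Those of Atf3 (chr1:191183284-191183583, minus strand) and Junb (chr8:84978699-84978998, minus strand) are given for the results on these genes that follow. Capitals mark GCGGGGGCG and TGACG, or their reverse complements, which do not overlap in these sequences.
Fosb: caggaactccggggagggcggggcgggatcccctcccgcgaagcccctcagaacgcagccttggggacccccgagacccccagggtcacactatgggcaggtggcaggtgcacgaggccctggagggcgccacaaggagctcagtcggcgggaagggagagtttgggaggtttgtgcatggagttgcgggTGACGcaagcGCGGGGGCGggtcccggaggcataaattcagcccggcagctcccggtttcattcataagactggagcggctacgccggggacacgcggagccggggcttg
Fosl2: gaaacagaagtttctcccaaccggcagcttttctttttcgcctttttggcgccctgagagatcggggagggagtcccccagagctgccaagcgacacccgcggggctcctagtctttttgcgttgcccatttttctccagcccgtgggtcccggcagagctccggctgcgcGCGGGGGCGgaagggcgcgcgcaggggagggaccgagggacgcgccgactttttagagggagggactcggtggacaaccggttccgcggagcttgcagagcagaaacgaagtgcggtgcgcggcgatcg
Nr4a1: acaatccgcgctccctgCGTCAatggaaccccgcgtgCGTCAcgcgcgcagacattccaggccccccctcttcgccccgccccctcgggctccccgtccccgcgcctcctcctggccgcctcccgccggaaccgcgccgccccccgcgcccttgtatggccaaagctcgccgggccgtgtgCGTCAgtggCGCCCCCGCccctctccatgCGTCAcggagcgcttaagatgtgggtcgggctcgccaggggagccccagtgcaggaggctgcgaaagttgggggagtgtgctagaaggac
Atf3: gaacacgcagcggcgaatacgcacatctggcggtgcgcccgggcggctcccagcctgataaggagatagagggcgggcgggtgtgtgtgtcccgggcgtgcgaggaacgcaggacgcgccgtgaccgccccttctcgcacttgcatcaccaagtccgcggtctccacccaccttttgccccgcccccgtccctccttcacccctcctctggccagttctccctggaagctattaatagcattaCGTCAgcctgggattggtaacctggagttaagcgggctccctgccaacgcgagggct
Junb: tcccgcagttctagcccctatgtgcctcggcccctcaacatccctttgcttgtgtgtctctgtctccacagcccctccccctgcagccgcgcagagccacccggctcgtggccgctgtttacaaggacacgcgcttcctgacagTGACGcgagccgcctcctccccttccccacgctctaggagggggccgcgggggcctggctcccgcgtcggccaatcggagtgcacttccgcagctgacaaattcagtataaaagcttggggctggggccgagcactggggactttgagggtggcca

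In Fosb the Egr1 motif spans positions -50 to -42 before the start site and the TGACG core positions -60 to -56. In Fosl2 the Egr1 motif lies at -79 to -71, and in Nr4a1 at -60 to -52. A match in letters is a description of the sequence and was not set against binding. With genotype alone or with extract type none of these 3 genes was called between the genotypes, whereas array weights called Fosb in TM175 over NTG (0.45) and in TM180 over TM175 (-0.43). The log2 differences with extract type in TM180 over NTG were -0.07 for Fosb, -0.01 for Fosl2 and 0.23 for Nr4a1 (adjusted p of 0.84, 0.975 and 0.551).

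Over all 11 member probe sets, limma with genotype alone called none in TM175, where 0.00884% of all probe sets were called, and none in TM180, where 0.504% were. Unadjusted p-values under 0.05 were held by 2 of 11 in TM175 (Egr1 and Atf3), against 13.0% of all probe sets, and by 2 of 11 in TM180 (Fos and Egr1), against 9.34%. With extract type none was called in TM175 (background 0.862%), where 3 of 11 had an unadjusted p under 0.05 (Fosb, Egr1 and Atf3) against 22.1% of all probe sets. In TM180 1 was called, Egr1, which rose (background 2.01%, of which 1.47% higher). Small positive differences with genotype alone were frequent: 11 of 11 probe sets lay above 0 in TM175, against 57.9% of all, and 10 of 11 in TM180, against 48.5%. The median log2 difference over the 10 members in that model was 0.21 in TM175, beside 0.04 for all probe sets, and 0.22 in TM180, beside -0.01. Both comparisons share the NTG arrays, so these counts are not separate evidence.

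**Figure D2:**
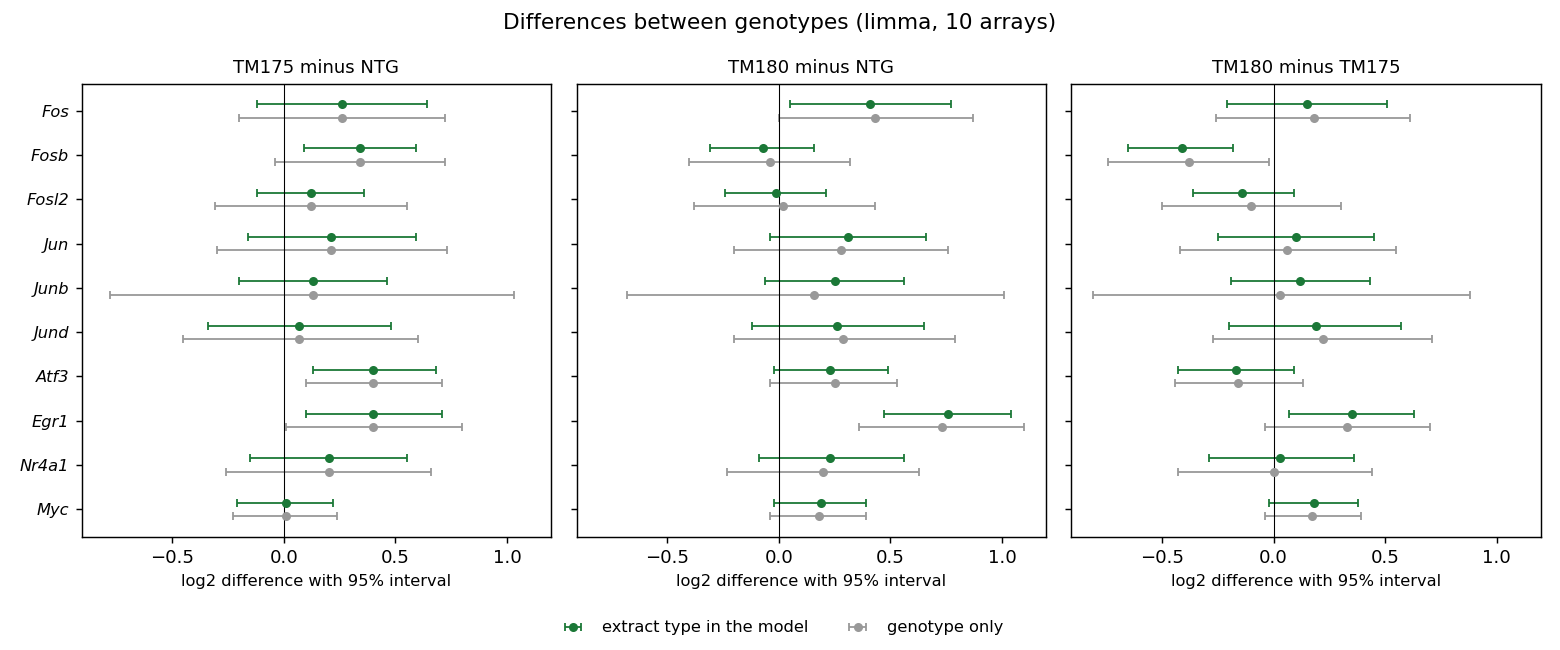
Log2 differences of the 10 members (brightest probe set of each) in TM175 minus NTG, TM180 minus NTG and TM180 minus TM175, with 95% intervals. Green points are from the limma model with extract type and grey points from genotype alone; Egr1 in TM180 minus NTG, at 0.76 and 0.73, lies farthest from 0.

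Atf3, a stress-induced repressor of the ATF family, was the other member whose arrays did not overlap with the controls. Its mean level, like those of Fos, Fosb, Junb and Myc, lay below the median of all probe sets, and the values carry no detection call. Its probe set (1449363_at) read 59.06, 75.93 and 57.56 in TM175 and 53.13, 68.43, 52.24 and 55.94 in TM180, against 51.47, 48.09 and 45.12 in NTG. Each transgenic array was above each control array, in TM180 by less than 1 unit at the closest pair. The log2 difference in TM175 was 0.40 ± 0.14 (SE, adjusted p = 0.277), and with extract type 0.40 ± 0.13 (adjusted p = 0.116). In TM180 it was 0.25 ± 0.13 (adjusted p = 0.64), and with extract type 0.23 ± 0.12 (adjusted p = 0.409). Without TM175 array 1 and with extract type it was 0.49 in TM175 (adjusted p = 0.143). Of the 11 member probe sets 2, those of Egr1 and Atf3, lay above NTG without overlap in TM175, beside 8.42% of all probe sets. The same 2 did so in TM180, beside 5.98%, and both comparisons use the same NTG arrays. The Atf3 promoter shown above holds 1 TGACG core, on the reverse strand at positions -7 to -3.

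Fos, the founding member of its family and partner of Jun in AP-1, spread widely within each genotype. It read 62.26, 55.53 and 41.91 in TM175 and 46.3, 77.77, 56.37 and 60.94 in TM180, against 47.14, 50.59 and 35.42 in NTG. The groups overlapped, and the lowest TM180 array was below 2 of the 3 NTG arrays. The log2 difference in TM180 was 0.43 ± 0.20 (SE, adjusted p = 0.534) and in TM175 0.26 ± 0.21 (adjusted p = 0.612). Among pools alone Fos was at 1.72-fold in TM180 over NTG, and among single hearts at 1.2-fold.

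Fosb, which encodes a Fos family protein with a known shortened form, showed its higher values in single TM175 hearts. It read 59.47, 49.48 and 36.18 in TM175 and 37.55, 37.43, 38.03 and 32.66 in TM180, against 36.49, 44.09 and 32.68 in NTG. Both single TM175 hearts were above every other array, while the TM175 pool was within the range of the NTG arrays. In TM180 over TM175 the log2 difference was -0.38 ± 0.16 (SE, adjusted p = 0.365), and with extract type -0.41 ± 0.11 (adjusted p = 0.081). In TM175 over NTG it was 0.34 ± 0.17 (adjusted p = 0.425), and with extract type 0.34 ± 0.12 (adjusted p = 0.135). Neither passed, and the highest Fosb value was that of TM175 array 1, the heart with high Xist. Without that array and with extract type the log2 difference was -0.29 in TM180 over TM175 (adjusted p = 0.235) and 0.23 in TM175 over NTG (adjusted p = 0.342).

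Fosl2, the Fos family member Fra-2, had nearly equal means in TM180 and NTG. It read 85.23 to 133.8 in TM175 and 84.35 to 112 in TM180, against 84.91 to 126.4 in NTG, so that the groups overlapped. Limma put it at 0.12 ± 0.19 in TM175 (SE, adjusted p = 0.808) and 0.02 ± 0.18 in TM180 (95% interval -0.38 to 0.43, adjusted p = 0.999).

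Jun, the central partner in AP-1, was at slightly higher values in the transgenic groups without separation. Its brighter probe set (1417409_at) read 176.1, 220 and 262.7 in TM175 and 253.6, 228.6, 155.3 and 293.3 in TM180, against 199.6, 151.4 and 215.9 in NTG. The pool was the highest array of each genotype. On the log2 scale Jun differed by 0.21 ± 0.23 in TM175 (SE, adjusted p = 0.713) and 0.28 ± 0.22 in TM180 (adjusted p = 0.864). The dimmer probe set (1448694_at) gave 0.22 ± 0.13 in TM175 and 0.21 ± 0.12 in TM180 (adjusted p of 0.47 and 0.673), in the same direction.

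Jund, a Jun family protein linked to quiescence and known to restrain cardiac hypertrophy in mice, read 747.9, 1130 and 728.1 in TM175 and 1151, 1340, 776.6 and 803.5 in TM180, against 828, 941.5 and 677.4 in NTG. Its groups overlapped, and the spread within TM180 was 274 (SD, n = 4) around a mean of 1020. Against NTG it stood at 0.07 ± 0.24 on the log2 scale in TM175 (SE, adjusted p = 0.914) and 0.29 ± 0.22 in TM180 (adjusted p = 0.856). Its values of 1000 and above were read after undoing a separator in the deposited table.

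Nr4a1, the orphan nuclear receptor Nur77, read 204.6, 234.4 and 305.6 in TM175 and 221.4, 305.8, 183.8 and 291.4 in TM180, against 219.8, 184.2 and 239.3 in NTG. The lowest TM180 array was just below all 3 control arrays, and the groups overlapped. Its log2 difference from NTG was 0.20 ± 0.21 in TM175 (SE, adjusted p = 0.703) and 0.20 ± 0.20 in TM180 (adjusted p = 0.931), and 0.00 between the lines (95% interval -0.43 to 0.44).

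Myc, which drives ribosome and cell growth genes, was the member with the smallest spread among single hearts, 1.26-fold from lowest to highest. It read 47.19, 49.82 and 44.4 in TM175 and 51.21, 50.7, 52.78 and 57.91 in TM180, against 42.02, 47.7 and 51.49 in NTG. The TM180 arrays lay just above the TM175 arrays without overlap, while the NTG arrays reached into both. The log2 difference of TM180 over TM175 was 0.17 ± 0.10 (SE, adjusted p = 0.442). Myc was the only one of the 11 probe sets without overlap between the lines, beside 6.22% of all probe sets that were higher in TM180 in this way. Between the lines limma called 0 of 11 member probe sets with genotype alone, beside 0% of all, and 1 of 11 had an unadjusted p under 0.05 (Fosb), against 13.3%. With extract type it called 0 of 11, beside 0.0265%, and 2 of 11 had an unadjusted p under 0.05 (Fosb and Egr1), against 25.4%. Of the 11, 7 lay above 0 in TM180 over TM175 with genotype alone, against 44.6% of all probe sets.

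The members did not share 1 order of the single hearts. Among the 7 individual arrays TM180 array 2 was the highest for 5 of the 10 members (Fos, Junb, Jund, Egr1 and Nr4a1) and the lowest for none. NTG array 1 was the lowest for 4 members (Fosb, Fosl2, Egr1 and Myc) and the highest for none. These counts were not made over all probe sets, so they do not set the members apart from other genes. The range over these arrays was between 1.26-fold for Myc and 1.84-fold for Egr1.

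The comparison of pooled with individual extracts asked whether the members differ between a pool of 20 hearts and single hearts of the same genotypes. Junb, a Jun family protein that can oppose Jun, was higher in every pool. Its probe set (1415899_at) read 113.9, 128.6 and 93.14 in the TM175, TM180 and NTG pools, against 46.05 to 72.47 in the 7 single hearts. No pool overlapped with a single heart, and the ratio of pool to single hearts was 2.14 for TM175, 2.25 for TM180 and 1.81 for NTG. Limma gave 1.05 ± 0.13 (SE) on the log2 scale, so that Junb rose 2.07-fold in pools (95% interval 1.7 to 2.51, adjusted p = 0.000176). Within an extract type the log2 differences of Junb from NTG were 0.05 in TM175 and 0.15 in TM180 among single hearts, and 0.29 and 0.47 among pools.

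Fosl2 and Fosb were lower in the pools. Fosl2 (1422931_at) read 85.23, 84.35 and 84.91 in the TM175, TM180 and NTG pools, against 97.34 to 133.8 in single hearts. The 3 pools were within 1 unit of each other and below every single heart, and Fosl2 fell by 0.44 ± 0.09 on the log2 scale (adjusted p = 0.00693). Fosb (1422134_at) read 36.18, 32.66 and 32.68 in the pools, against 36.49 to 59.47 in single hearts, and fell by 0.36 ± 0.10 (adjusted p = 0.0239). These calls did not hold in every fit that left out an array: without the TM175 pool the log2 differences were -0.39 for Fosl2 (adjusted p = 0.0557) and -0.25 for Fosb (adjusted p = 0.172), and without the NTG pool Fosb was at -0.38 (adjusted p = 0.0667). Junb was called in each of the 10 leave-one-out fits (adjusted p of 7.29e-05 to 0.00556).

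In all, 3 of 11 member probe sets were called between extract types, beside 22.2% of all probe sets (10.0% higher and 12.2% lower), a share near the background. Arrays did not overlap for the same 3, beside 7.09% of all probe sets higher and 7.88% lower in pools. Members that did not pass pointed both ways, with Jun at 0.41 ± 0.15, Nr4a1 at 0.35 ± 0.14 and Egr1 at 0.30 ± 0.12 (SE) above 0, and Jund at -0.37 ± 0.16 and Fos at -0.29 ± 0.15 below 0 (adjusted p between 0.062 and 0.18). Of the cell type markers, 3 of 8 fibroblast and 2 of 8 endothelial genes were higher in pools. The fibroblast sums were 6910 to 12900 in pools and 4600 to 11800 in single hearts, and the endothelial sums 2870 to 3730 in pools and 2550 to 3500 in single hearts. Their part in the Junb, Fosl2 and Fosb results was not tested. Whether genotype differences depend on extract type could hardly be tested with 1 pool per genotype: the interaction term in limma, with a spread from single hearts alone, gave adjusted p of 0.919 or more for the 11 probe sets, which does not show that they are alike.

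**Figure D3:**
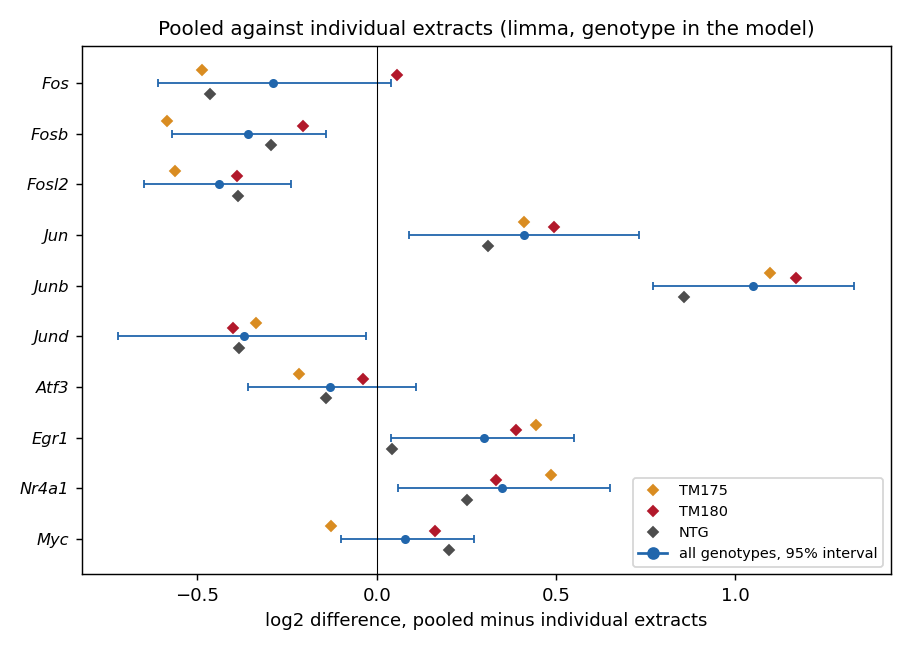
Log2 difference of pooled minus individual extracts for the 10 members, with the limma estimate over all genotypes and its 95% interval (blue) and the value within each genotype (diamonds). Junb lies at 1.05, with 2.14-fold, 2.25-fold and 1.81-fold within TM175, TM180 and NTG, while Fosl2 and Fosb lie below 0 in each genotype.

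The rest of the immediate early response was followed in lists of genes, by the brightest probe set of each. Calls with extract type were repeated leaving out each array in turn, a check added after seeing the data. Over all probe sets that model called 0.862% in TM175, 2.01% in TM180 and 0.0265% between the lines. The lists were not tested as sets. Genes named here were picked by p in these same arrays, so their lack of overlap is no added support. Of all probe sets, 8.42% were higher without overlap in TM175, 5.98% in TM180 and 6.22% between the lines. Of 17 other AP-1, ATF and CRE-binding factors measured, none was called with genotype alone. With extract type none was called in TM175 and 1 rose in TM180, Atf5, a zipper factor of the mitochondrial stress response. Atf5 read 343.9, 411, 352 and 323.4 in TM180, against 284.8, 217.5 and 240.4 in NTG, a log2 difference of 0.53 ± 0.11 (SE, adjusted p = 0.035, and 0.087 with genotype alone). The groups did not overlap, and Atf5 passed in 3 of the 10 fits that left out an array (0.41 to 0.63, adjusted p of 0.0268 to 0.161). The list's median with genotype alone was 0.15 in TM175 and 0.11 in TM180, with 13 and 11 of 17 genes above 0. Atf4, a translation-controlled stress factor with the smallest p of the list in TM175, was at 0.32 ± 0.11 there (adjusted p = 0.256, and 0.0889 with extract type), and its dimmer probe sets at 0.38 and 0.10.

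Of the 8 other EGR and NR4A genes and NAB corepressors, none was called in any comparison, with or without extract type. Egr2, the paralog of Egr1, had the smallest p against NTG in each line. It read 23.77, 23.91 and 21.55 in TM175 and 21.84, 24.84, 22.12 and 22.05 in TM180, against 16.5, 20.11 and 14.27 in NTG. No transgenic array overlapped with a control array. The Egr2 level, like those of Snai1 and Hmox1 below, was under the median of all probe sets. The log2 difference was 0.46 ± 0.13 in TM175 and 0.43 ± 0.12 in TM180 (SE, adjusted p of 0.206 and 0.181). With extract type it was 0.46 and 0.42 (adjusted p of 0.0585 and 0.0583). The dimmer Egr2 probe set gave 0.08 and 0.21.

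Of 38 other immediate early and feedback genes measured, 1 rose in TM175 with extract type, Snai1, a zinc finger repressor known from epithelial to mesenchymal transition. Snai1 read 70.88, 76 and 70.85 in TM175 and 53.97, 58.54, 61.49 and 60.43 in TM180, against 45.65, 46.37 and 50 in NTG. The 3 groups were stacked without overlap, and the log2 difference with extract type was 0.62 ± 0.09 in TM175 (SE, adjusted p = 0.0281, and 0.111 with genotype alone) and 0.31 ± 0.08 in TM180 (adjusted p = 0.0932). In TM175 Snai1 passed in 5 of 10 fits that left out an array, and not without TM175 array 1 (0.63, adjusted p = 0.0676). None of the 38 was called in TM180 against NTG or between the lines. The list's median with genotype alone was 0.07 in TM175 and 0.17 in TM180, with 23 and 25 of 38 genes above 0. Dusp6, a phosphatase that switches ERK off and is itself induced by ERK signalling, had the smallest p between the lines. It read 162.1, 184.4, 183.6 and 192.3 in TM180, against 123.9, 133.2 and 143.6 in TM175, without overlap. The log2 difference was 0.43 ± 0.10 (SE, adjusted p = 0.302), and 0.44 ± 0.10 with extract type (adjusted p = 0.0757).

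Of 21 genes upstream of the immediate early genes (SRF, ternary complex factors, MRTF and MAP kinases), 1 rose in TM180 with extract type, Rps6ka3, which encodes the kinase RSK2 downstream of ERK. Rps6ka3 read 157.5, 184.6, 216.2 and 178.2 in TM180, against 111.1, 122.5 and 147.3 in NTG, a log2 difference of 0.55 ± 0.12 (SE, adjusted p = 0.0379, and 0.144 with genotype alone). In TM175 it read 179, 165 and 206.3, also without overlap with NTG, at 0.53 ± 0.13 with extract type (adjusted p = 0.063). The TM180 and NTG arrays did not overlap, and the TM180 difference passed in 2 of 10 fits that left out an array (adjusted p of 0.0331 to 0.111). Its other probe sets disagreed, at 0.21 and -0.12 in TM180. The list's median with genotype alone was -0.01 in TM175 and 0.05 in TM180. Of 12 genes of the MYC network none was called in any comparison, and the smallest p against NTG belonged to Mlxip, a glucose-responsive partner of Mlx, at -0.45 ± 0.16 in TM175 and -0.33 ± 0.15 in TM180 (adjusted p of 0.284 and 0.529). Between the lines the smallest p in the AP-1, EGR, upstream and MYC lists belonged in turn to Batf3 (-0.23), Nab2 (0.26), Elk1 (-0.23) and Mga (-0.27), with adjusted p of 0.344 to 0.435.

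Genes whose values followed a member most closely over the 7 individual arrays were picked from 1 probe set per gene above the median level, as a description with no test. For Fos they were Socs3, Nrarp and Ccna2 (Pearson r of 0.95, 0.94 and 0.94), for Jun Zfp219, Ap1s1 and Egfl7 (0.98, 0.97 and 0.97), for Egr1 Itih5, Mfsd1 and Anpep (0.99, 0.98 and 0.97), and for Myc Sike1, Napg and Sec22b (0.96, 0.96 and 0.95). These are the highest of 7331 or 7332 genes over few arrays that share genotypes and normalization, and none of the 12 was a member.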

How the data were processed

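Per the labels, each extract of ventricular total RNA was labelled as biotinylated cRNA for its own Affymetrix array. The deposited values are linear probe set intensities made by the authors with RMA, per the submitters' processing notes (version not given in the sources used here). RMA gives background-corrected, quantile-normalized summaries per probe set and no detection call. Where an intensity reached 1000, a point stood before its last 3 digits. This was undone for 7844 of 226900 values from each value's digits and its probe set's other arrays. As a check of the code, values already read were written back in that notation and read again. This check cannot show that the level chosen was right. For 225 analysed probe sets the level was not settled, none of a member. Array medians were 66.6 to 70.9.

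After 64 control probe sets were left out, log2 intensities of 22626 probe sets were fitted with limma 3.58.1 (lmFit, eBayes) in R 4.3.3 over all 10 arrays, 1 mean per genotype, two-sided, with Benjamini-Hochberg adjustment over all probe sets and calls under 0.05. The fits were tested on simulated data. Fold changes are ratios of geometric means, and means ± SD are of linear intensities. Alternatives were extract type as a covariate, single extract types, a block for the replicate number, array quality weights, renewed normalization, other filters and variance models, probe set averages, and leaving out arrays. Members and lists were chosen with earlier results of these data known. From each list the text names genes called in either model (up to 4), or else the smallest p. For each gene the brightest probe set of settled level with 1 symbol was used. Python 3.11.15 with pandas 2.3.3 and matplotlib 3.10.9 served for reading, sequences and plots. Gene symbols came from the platform annotation and promoters from RefSeq on GRCm38.p6. The array files name no genome build, so the only coordinates given are those of the RefSeq promoters.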

Additional observations from a re-analysis of the deposited data

Results flagged for a closer look

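In TM180, the only group of 4 arrays, 2 of the 11 member probe sets had an array far from the other 3, by the gap to its nearest neighbour as a share of the range. Chance flags about 1 in 20 groups of 4 like arrays, a rate that does not hold here because 1 of the 4 was a pool. Fosb read 32.66 in the TM180 pool, against 37.43 to 38.03 in the 3 single hearts. Fosl2 read 84.35 in the TM180 pool, against 108.1 to 112 in the 3 single hearts. In both the array that stood apart was the pool, and both genes were also lower in the pools of the other genotypes. The 2 flags are therefore not separate from the difference between extract types given above.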

How the results depend on the processing

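Values on genotypes are TM175 over NTG, TM180 over NTG and TM180 over TM175, on the log2 scale. The count of member probe sets called with genotype alone was 0 in TM175, TM180 and between the lines, and stayed 0 in all 10 fits that left out 1 array. With extract type it was 1 in TM180 (Egr1), also without TM175 array 1 (1), and 0 to 1 when each array was left out of that model, an alternative chosen after seeing the data. Array weights gave 2 in TM175 (Fosb and Atf3), 1 in TM180 (Egr1) and 2 between the lines (Fosb and Egr1). The share of all probe sets called with array weights was not counted, so these counts do not set the members apart. Between extract types the count of 3 became 5 with array weights, 1 of 6 among probe sets above the median level, and 1 to 5 when 1 array was left out, with 1 without the TM175 pool and 5 without TM180 array 3. The count of 3 stood beside 22.2% of all probe sets called. For these alternatives and the fits above that left out an array, the share of all probe sets was not counted. Egr1 in TM180 kept its direction in every fit, at 0.63 to 0.82 when 1 array was left out with genotype alone (adjusted p of 0.0681 to 0.317).

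Uncalled differences near 0 changed sign, and the causes were not tested. In TM175, Myc was at -0.07 with renewed quantile normalization, -0.04 with median centring, -0.21 in pools alone and -0.01 with extract type and without TM175 array 1. In TM180, Fosl2 was at -0.01 with extract type, with single hearts alone, with pools alone and with extract type without TM175 array 1, Fosb at 0.01 with the replicate block and 0.02 with array weights, and Junb at -0.13 with the block. Between the lines, Fos was at 0.00 in single hearts (below 0 before rounding), Jun at -0.06 with the block and -0.02 with renewed normalization, Junb at -0.26 with the block, and Nr4a1 at -0.08 with the block, -0.09 with renewed normalization, -0.07 in pools and -0.05 with extract type and without TM175 array 1. When 1 array was left out, ranges that crossed 0 were, in TM175, -0.02 to 0.31 for Fosl2, -0.24 to 0.41 for Junb, -0.13 to 0.19 for Jund and -0.07 to 0.07 for Myc. In TM180 they were -0.14 to 0.07 for Fosb, -0.10 to 0.18 for Fosl2 and -0.13 to 0.45 for Junb. Between the lines they were -0.29 to 0.04 for Fosl2, -0.08 to 0.25 for Jun, -0.26 to 0.40 for Junb and -0.13 to 0.16 for Nr4a1.

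Replicate numbers are shared between the groups but do not pair the arrays. Deviations of same-numbered arrays correlated at -0.52 to 0.71, and number 3 is a pool in TM175 and NTG and a single heart in TM180. With the replicate block, which in effect leaves out the TM180 pool, the count was 0 in TM175, 0 in TM180 and 0 between the lines, with Egr1 in TM180 at 0.63 (adjusted p = 0.241).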

Other observations

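Of 14 heat shock and handling response genes, 2 rose in TM180 with extract type in the model, beside 2.01% of all probe sets called. They were Mt2, a metallothionein, and Hmox1, a heme oxygenase. Mt2 read 652.8, 709.7, 788.6 and 692.7 in TM180 and 523.2, 657.4 and 605.3 in TM175, against 504.5, 346.9 and 350.9 in NTG. In TM180 over NTG its log2 difference was 0.84 ± 0.14 (SE, adjusted p = 0.00991), and it passed with genotype alone (adjusted p = 0.0363). Leaving out each array in turn with extract type, Mt2 passed in 8 of 10 fits, and not without the TM180 pool (adjusted p = 0.0563) or the NTG pool (adjusted p = 0.0825). Hmox1 read 65.72, 74.7, 63.17 and 64.98 in TM180, against 52.81, 51.35 and 41.52 in NTG, a log2 difference of 0.45 ± 0.10 (SE, adjusted p = 0.042, and 0.218 with genotype alone), and passed in 2 of these 10 fits. In neither gene did a TM180 array overlap with an NTG array, beside 5.98% of all probe sets that were higher in this way. Both genes were picked by p in these same arrays, so this is no added support. The list's median with genotype alone was 0.15 in TM175 and 0.27 in TM180, with 10 and 11 of 14 genes above 0. None of the 14 was called in TM175 or between the lines.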
